A study of Oryctolagus cuniculus with 12 samples.

Results

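In the gene table, 10 rows of the gene table were examined, namely those whose names were CDKN1A, MDM2, CCNG1, PHLDA3, SESN1, SESN2, GADD45A, ZMAT3, EDA2R, and FDXR. All 10 are known transcriptional targets of p53, and they were taken by name from the 20566 genes of the table. Messenger RNA was sequenced from the conjunctiva of Japanese white rabbits in 12 libraries, 3 in each of 4 groups. The TL3h, TL3d, and TL14d groups held conjunctiva with the filtering bleb, which was taken at 3 hours, 3 days, or 14 days from right eyes that had undergone trabeculectomy, an operation in which a flap in the sclera lets aqueous humor out to a bleb beneath the conjunctiva. The control group held conjunctiva of left eyes, which had no operation. All animals were females, and the labels give no age. In the operation described in the study's methods, sponges soaked in mitomycin C were laid under the conjunctiva and the scleral flap, and betamethasone was injected into the conjunctiva and an antibiotic ointment applied at the end. No group had surgery without mitomycin C or mitomycin C without surgery, so the operation, mitomycin C, and betamethasone cannot be told apart in these comparisons. The control tissue came from the other eye of operated animals, and the labels neither pair each left eye with a right eye nor say how long after surgery the control tissue was taken, so the control group is not known to match any of the 3 times. The labels also do not say whether the 3 libraries of a group came from separate animals. The study describes its operated values as averages of 3 eyes and the operation as done on the right eye. It does not say from how many animals the control libraries came. The p-values measure the spread between these samples.

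Mitomycin C crosslinks the strands of DNA and is used in glaucoma surgery to limit scarring of the bleb by fibroblasts. Damaged DNA activates kinases that protect the transcription factor p53 from MDM2, the ubiquitin ligase that otherwise keeps its level low, and p53 then binds and switches on genes that stop the cell cycle, aid DNA repair, lower oxidative stress, or lead to cell death. MDM2 is itself a target and closes a negative feedback loop. Several targets also answer to stress signals that do not need p53.

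The total estimated count per library ranged from 27111348 to 38591425, and all 10 genes passed the filter on low counts, as did 14835 genes in all. A level is given as CPM, the count scaled to its library's total after that total was corrected by TMM, with correction factors of 0.768 to 0.783 at 3 hours and 1.03 to 1.13 elsewhere. For the quasi-likelihood test of edgeR, q is the p-value adjusted over all 14835 genes, and a gene was called higher or lower at a q below 0.05. TL14d replicate 1 stood apart from its group, with a mean correlation of log2 CPM of 0.962 to the control libraries but 0.898 to its own group. Marker sums of other cells moved with the groups. The 5 neutrophil markers summed to 2.71 to 65.7 CPM in control libraries, to 822 to 2213 CPM in TL3h libraries, and to 87.7 to 420.1 CPM in TL3d libraries. The 4 measured monocyte and macrophage markers summed to 53.6 to 399 CPM in control libraries, 416 to 664 CPM in TL3h libraries, and 1042 to 1499 CPM in TL3d libraries. The 6 fibroblast markers summed to 12160 to 76290 CPM in control libraries and 105000 to 125600 CPM in TL3h libraries, and to 1328, 11710, and 64680 CPM in TL3d replicates 1, 2, and 3, of which the first and second lie below every control library. The 5 measured markers of epithelium, which defines conjunctiva, summed to 3808 to 8006 CPM in control libraries, 4121 to 6697 CPM at 3 hours, 6124 to 16400 CPM at 3 days, and 8125 to 12550 CPM at 14 days, when each library was above every control library. Of these markers only KRT5 had each 14-day library above every control library (2808 to 8580 CPM, beside 1258 to 2695 CPM). KRT4, EPCAM, CDH1, and DSG3 overlapped with the control group at 14 days. Of 4 goblet cell markers only SPDEF was in the table, at 8.66 to 14.8 CPM in control libraries, 5.43 to 18.9 CPM at 3 hours, 2.77 to 3.96 CPM at 3 days, when each library was below every control library, and 1.77 to 21.2 CPM at 14 days. The other lists were T cell (4.65 to 15.6 CPM), B and plasma cell (208.5 to 3522 CPM), endothelium (62.2 to 263 CPM in control libraries, 599 to 1205 CPM in TL3h libraries, and 286 to 529 CPM in TL3d libraries), skeletal muscle (0 to 253 CPM), and pigment cell (8.53 to 141 CPM), and no marker in the table was at 0 in every library. The endothelium markers did not move alike. PECAM1 was at 5.91 to 135.5 CPM in control libraries and 458.8 to 972.3 CPM in TL3h libraries, and CDH5 at 2.04 to 31.8 and 64.3 to 113.3 CPM. VWF overlapped between these groups (7.95 to 63.1 and 62.0 to 94.6 CPM), as did KDR, which was mostly lower at 3 hours (19.4 to 46.3 and 10.2 to 24.6 CPM). Control replicate 3 had the highest neutrophil, macrophage, and fibroblast sums of its group. Their part in the results below was not tested, and in bulk tissue fewer cells of a type and less RNA per cell cannot be told apart.

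Of the p53 targets, 7 were higher in the bleb at 3 hours, at 3 days, or at both times. At 3 hours, CDKN1A, MDM2, PHLDA3, SESN2, and GADD45A were higher than in the control group, EDA2R and FDXR were lower, and CCNG1, SESN1, and ZMAT3 were not past the threshold. That is 5 of 10 genes higher and 2 of 10 lower, beside 23.2% of all genes tested that were higher and 22.2% that were lower. At 3 days, 7 of 10 genes were higher and 0 were lower, beside 10.6% higher and 7.0% lower of all genes, and CCNG1 and ZMAT3 had joined the 5 genes that were higher at 3 hours. Those 5 were higher at both times, as were 5.72% of all genes tested. At 14 days, 0 of 10 were past the threshold in either direction, beside 0% higher and 0% lower of all genes. The median log2 fold change of the 10 genes was 0.70 at 3 hours, 1.20 at 3 days, and 0.76 at 14 days, and that of all genes tested was 0.02, 0.00, and 0.02. All comparisons with the control group share the same 3 control libraries. The 10 genes were chosen with earlier results of these data known, so their counts beside the shares of all genes are not a test of the set.

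**Figure D1:**
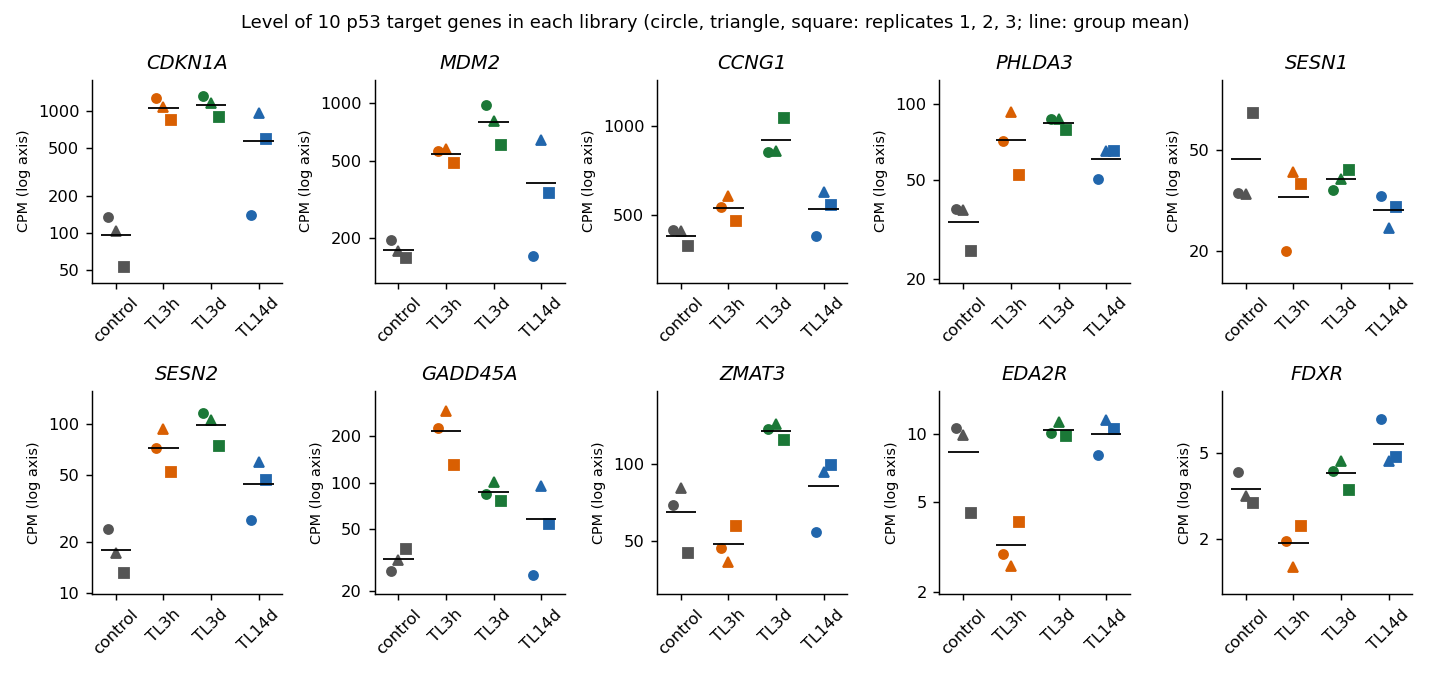
Each panel shows 1 gene, with the CPM of each library on a log axis for the control, TL3h, TL3d, and TL14d groups. Symbols mark the replicates and the line the group mean. CDKN1A, MDM2, PHLDA3, SESN2, and GADD45A stand above every control library at 3 hours and at 3 days, EDA2R and FDXR stand below every control library at 3 hours, and the circle of TL14d replicate 1 lies near the control libraries for most genes.

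Some checks bear on the counts at 3 hours and at 3 days. When libraries were scaled by their totals alone, all genes tested shifted at 3 hours to a median of -0.47 on the log2 scale and the split of calls over all genes was 1889 higher and 5674 lower in place of 3435 and 3298, and of the 10 genes 4 were higher and 4 lower. Without control replicate 3, 5 genes were higher and 3 lower at 3 hours, and 5 were higher at 3 days, since GADD45A and ZMAT3 were then not past the threshold. Over all genes that fit called 3351 higher and 3496 lower at 3 hours and 1300 higher and 915 lower at 3 days. The count at 3 days moved most without control replicate 2, to 4 of the 10 genes, when MDM2, GADD45A, and ZMAT3 were not past the threshold, and that fit called 370 genes in all at 3 days in place of 2608.

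CDKN1A (gene ID 100348489, chromosome 12 from 26614081 to 26621175, plus strand, in the OryCun2.0 coordinates of the authors' table) encodes p21, the inhibitor of cyclin-dependent kinases through which p53 halts the cell cycle. It was at 135, 104, and 52.6 CPM in control replicates 1, 2, and 3 and at 1273, 1080, and 838.5 CPM in the TL3h libraries. In the TL3d libraries it was at 1331, 1159, and 885 CPM. The lowest library of either group was far above the highest control library. CDKN1A rose by 3.45 on the log2 scale at 3 hours (standard error [SE] 0.62, q = 0.00145), a change above that of 97.6% of the genes tested. At 3 days the rise was 3.53 (SE 0.62, q = 0.0114). The difference between the 2 times was 0.08 (SE 0.56, q = 0.923), and its sign changed when TL3h replicate 3 or TL3d replicate 1 was left out. In the TL14d libraries CDKN1A was at 142, 969, and 586 CPM. Replicate 1 was thus just above the highest control library, while replicates 2 and 3 were in or near the range of the earlier groups.

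MDM2 (gene ID 100340389, chromosome 4 from 47780978 to 47813244, plus strand) encodes the ubiquitin ligase that marks p53 for degradation. It was at 194, 171, and 157 CPM in the control libraries and at 562, 580.3, and 490.25 CPM in the TL3h libraries. The TL3d libraries held 978, 805, and 609.9 CPM. The 3 groups did not overlap, with each TL3d library above each TL3h library and each TL3h library above each control library. MDM2 rose by 1.65 on the log2 scale at 3 hours (SE 0.40, q = 0.00784) and by 2.20 at 3 days (SE 0.41, q = 0.0135). At 3 days it was not past the threshold without control replicate 2 (q = 0.0552, range over the alternatives 9.47e-06 to 0.0552). The difference from 3 hours to 3 days was 0.55 (SE 0.40) and did not pass the test (q = 0.297). At 14 days the libraries held 162, 647, and 341 CPM, so that replicate 1 lay within the range of the control libraries and the others above it.

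CCNG1 (gene ID 100357563, chromosome 3 from 44664946 to 44672375, plus strand) encodes cyclin G1, a cyclin that recruits a phosphatase to MDM2. Its count was a fraction in 100% of the libraries, beside 75% for MDM2, 66.7% for CDKN1A, 50% for ZMAT3, 25% for PHLDA3, 8.33% for SESN2 and EDA2R, and 0% for SESN1, GADD45A, and FDXR. How reads were divided to give such counts is not stated, so the levels of the genes with fractions are uncertain to that extent, and no other gene of the table overlapped with any of the 10. It was at 442, 439, and 392 CPM in the control libraries and at 529, 578, and 474 CPM in the TL3h libraries. In the TL3d libraries it was at 814, 819, and 1059.6 CPM. No TL3h library reached into the control range and no TL3d library into the range of either, but the change at 3 hours was small. It was 0.31 on the log2 scale (SE 0.17, q = 0.165), and -0.19 when libraries were scaled by their totals alone (q = 0.387). At 3 days CCNG1 rose by 1.08 (SE 0.17, q = 0.00993), a 2.12-fold change. At 14 days it was at 424, 597, and 539 CPM, with replicate 1 within the control range.

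PHLDA3 (gene ID 100359232, chromosome 16 from 70060319 to 70063302, plus strand) encodes a small protein with a pleckstrin homology domain that keeps the kinase AKT from the membrane. It was at 38.0, 37.8, and 25.8 CPM in the control libraries and at 71.3, 93.0, and 52.0 CPM in the TL3h libraries. The TL3d libraries held 87.3, 87.2, and 79.0 CPM. All 6 operated libraries were above every control library, and the TL3d libraries lay closer to each other than the TL3h libraries did. PHLDA3 rose by 1.09 on the log2 scale at 3 hours (SE 0.22, q = 0.00303) and by 1.32 at 3 days (SE 0.22, q = 0.011). With scaling by library totals alone the change at 3 hours was 0.58 and missed the threshold (q = 0.0626, range over the alternatives 0.000176 to 0.0626). The TL14d libraries held 50.3, 65.3, and 65.2 CPM, and each of them was above every control library.

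The sestrins limit oxidative stress and restrain the growth kinase complex mTORC1, and 2 of them were among the 10 genes. SESN2 (gene ID 100353543, chromosome 13 from 137259454 to 137282658, minus strand) was at 23.8, 17.3, and 13.2 CPM in the control libraries and at 72.0, 93.1, and 51.8 CPM in the TL3h libraries. At 3 days it was at 115, 105, and 74.0 CPM. Every operated library at these times was above every control library. SESN2 rose by 2.0 on the log2 scale at 3 hours (SE 0.34, q = 0.00114) and by 2.44 at 3 days (SE 0.35, q = 0.00873), which were the calls with the second smallest and the smallest q among the 10 genes. At 14 days it was at 26.9, 59.1, and 46.6 CPM, and each library was above the highest control library.

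SESN1 (gene ID 100344328, chromosome 12 from 96931648 to 97049099, minus strand) was at 33.9, 33.5, and 70.0 CPM in the control libraries. The TL3h libraries held 19.95, 41.0, and 36.8 CPM and the TL3d libraries 34.7, 38.5, and 41.7 CPM. Both groups overlapped with the control group, in which replicate 3 was high. The log2 difference from the control group was -0.49 at 3 hours (SE 0.33, q = 0.248) and -0.26 at 3 days (SE 0.32, q = 0.596), and without control replicate 3 the sign at 3 days was positive (0.17). With scaling by library totals alone SESN1 was called lower at 3 hours (-0.97, q = 0.0222). At 14 days the libraries held 33.0, 24.5, and 29.6 CPM, all below the lowest control library, and the log2 difference was -0.66 (SE 0.33, q = 0.522).

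GADD45A (gene ID 100353284, chromosome 13 from 98577231 to 98580357, minus strand) encodes a small stress protein that slows the entry into mitosis and takes part in DNA repair. It was at 26.9, 31.7, and 37.3 CPM in the control libraries and at 226, 289, and 131 CPM in the TL3h libraries. In the TL3d libraries it was at 83.8, 100.1, and 76.1 CPM. The groups did not overlap, and GADD45A was the only one of the 10 genes with a lower level in every TL3d library than in every TL3h library. It rose by 2.75 at 3 hours on the log2 scale (SE 0.45, q = 0.000828). At 3 days the change was 1.44 (SE 0.43, q = 0.044), a call that was lost in 9 of the 18 alternatives (range of q 0.00906 to 0.131), among them the fit without any 1 of the control libraries. The fall between the 2 times was 1.31 (q = 0.0338). With scaling by library totals alone it was 0.83 and not past the threshold (q = 0.132), and the fits without TL3h replicate 1 or 2 or without any 1 of the TL3d libraries also lost it. The TL14d libraries held 25.4, 95.3, and 54.2 CPM, with replicate 1 below and the others above the control range.

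ZMAT3 (gene ID 100358964, chromosome 14 from 74461656 to 74497817, minus strand) encodes a zinc finger protein that binds RNA. It was at 68.8, 80.8, and 44.7 CPM in the control libraries and at 47.1, 41.4, and 57.1 CPM in the TL3h libraries. The TL3d libraries held 136, 142, and 124 CPM. The TL3h group overlapped with the control group, and every TL3d library was above every library of both. The log2 difference from the control group was -0.42 at 3 hours (SE 0.26, q = 0.218), and ZMAT3 was called lower there with scaling by library totals alone (-0.93, q = 0.0176) and without control replicate 3. At 3 days it rose by 1.05 (SE 0.26, q = 0.0259), and the range of q over the alternatives was 0.00256 to 0.0828. That call was lost without any 1 of the control libraries and without TL3d replicate 1 or 2. At 14 days it was at 54.4, 93.2, and 98.6 CPM, with replicate 1 within the control range.

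EDA2R (gene ID 100355079, chromosome X from 45565617 to 45597210, minus strand) encodes a receptor of the tumor necrosis factor receptor family that binds ectodysplasin A2. It was at 10.7, 9.96, and 4.49 CPM in the control libraries and at 2.96, 2.61, and 4.10 CPM in the TL3h libraries. At 3 days it was at 10.1, 11.3, and 9.82 CPM. The TL3h libraries were below every control library, by a narrow margin for control replicate 3, and the TL3d libraries lay around the upper control values. EDA2R fell by 1.38 at 3 hours on the log2 scale (q = 0.00615), and the change at 3 days was 0.32 (q = 0.495). Without control replicate 3 the value at 3 days was -0.0013. At 14 days the libraries held 8.07, 11.5, and 10.5 CPM.

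FDXR (gene ID 103346270) encodes ferredoxin reductase, a mitochondrial enzyme that passes electrons to ferredoxin. Its gene model lies on an unplaced sequence and spans only 807 bases of transcript, and it had the fewest counts of the 10 genes. It was at 4.11, 3.18, and 2.96 CPM in the control libraries and at 1.96, 1.49, and 2.30 CPM in the TL3h libraries. The TL3d libraries held 4.15, 4.59, and 3.39 CPM. Every TL3h library was thus below every control library, while the TL3d group overlapped with it. FDXR fell by 0.83 at 3 hours (q = 0.0305), and the call was lost in 5 alternatives (range of q 0.00373 to 0.111), namely with only the 6 libraries compared and without control replicate 1 or 2 or TL3h replicate 1 or 2. At 14 days the libraries held 7.16, 4.62, and 4.79 CPM, each above every control library.

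**Figure D2:**
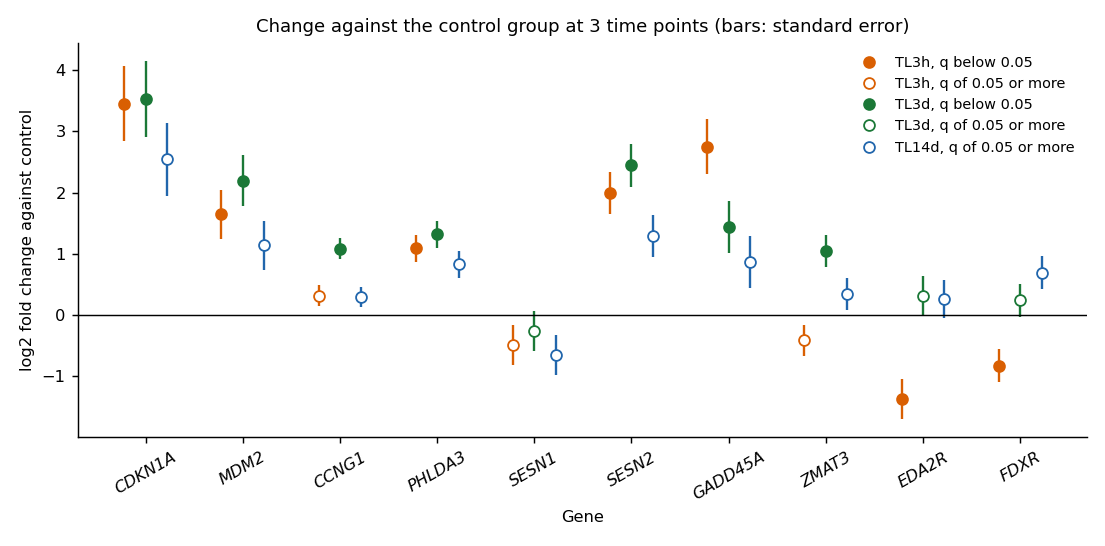
The log2 fold change of each gene against the control group is drawn for TL3h, TL3d, and TL14d, with bars for the standard error and filled points for a q below 0.05. CDKN1A has the largest change at each time, from 2.54 to 3.53, EDA2R and FDXR have filled points below 0 at 3 hours, and no point at 14 days is filled.

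Libraries that did not overlap with the control group were counted beside the calls. At 3 hours 6 of the 10 genes had every library above every control library, CCNG1 besides the 5 that were called, and 2 had every library below, beside 28.9% and 28.3% of all genes tested. At 3 days there were 7 above and 0 below, beside 23.8% and 21.7%. At 14 days there were 4 above, namely CDKN1A, PHLDA3, SESN2, and FDXR, and 1 below, SESN1, beside 6.03% and 5.11%.

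The TL3d group was compared with the TL3h group directly, to find which genes differed between the 2 early times. Of the 10 genes, 4 were higher at 3 days, beside 18.4% of all genes tested, and 1 was lower, beside 19.0%. ZMAT3 was higher by 1.47 (SE 0.26, q = 0.00191), EDA2R by 1.69 (SE 0.33, q = 0.00275), CCNG1 by 0.77 (SE 0.17, q = 0.00631), and FDXR by 1.07 (SE 0.27, q = 0.012). These 4 genes were those that were lower than the control group or not past the threshold at 3 hours, apart from SESN1, whose difference was 0.23 (SE 0.32, q = 0.602). GADD45A was the 1 gene that was lower. Of the genes that were higher at 3 hours, PHLDA3 and SESN2 differed by 0.23 and 0.44 between the 2 times (q = 0.439 and 0.317), with standard errors of 0.22 and 0.33. Without overlap between the libraries of the 2 times there were 5 genes above at 3 days, MDM2 besides the 4 that were called, and 1 below, beside 26.2% and 28.5% of all genes tested. PHLDA3 was called higher at 3 days when libraries were scaled by their totals alone (q = 0.033).

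At 14 days the group was split between its libraries. In TL14d replicate 1, 4 of the 10 genes were above the range of the control libraries, 4 were within it, and 2 were below. In replicate 2, 9 genes were above and 1 was below, and in replicate 3, 8 were above, 1 was within, and 1 was below. CDKN1A differed most between these libraries, at 0.54 on the log2 scale over the mean control level in replicate 1, 3.32 in replicate 2, and 2.59 in replicate 3. With all 3 libraries, the log2 fold changes were 2.54 for CDKN1A (SE 0.60, q = 0.346), 1.29 for SESN2, 1.14 for MDM2, 0.87 for GADD45A, and 0.83 for PHLDA3, and none passed the test. The smallest q of any gene was 0.346, 1538 genes had an unadjusted p below 0.05, and DESeq2 called 371 genes, CDKN1A (q = 0.00221) and SESN2 (q = 0.0293) among them. Without TL14d replicate 1, 3 of the 10 genes were higher, beside 3.51% of all genes tested in that fit. They were CDKN1A (3.00, q = 0.00868), MDM2 (1.51, q = 0.0231), and SESN2 (1.55, q = 0.0296). Without TL14d replicate 2 or 3, 0 of the 10 genes were past the threshold.

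**Figure D3:**
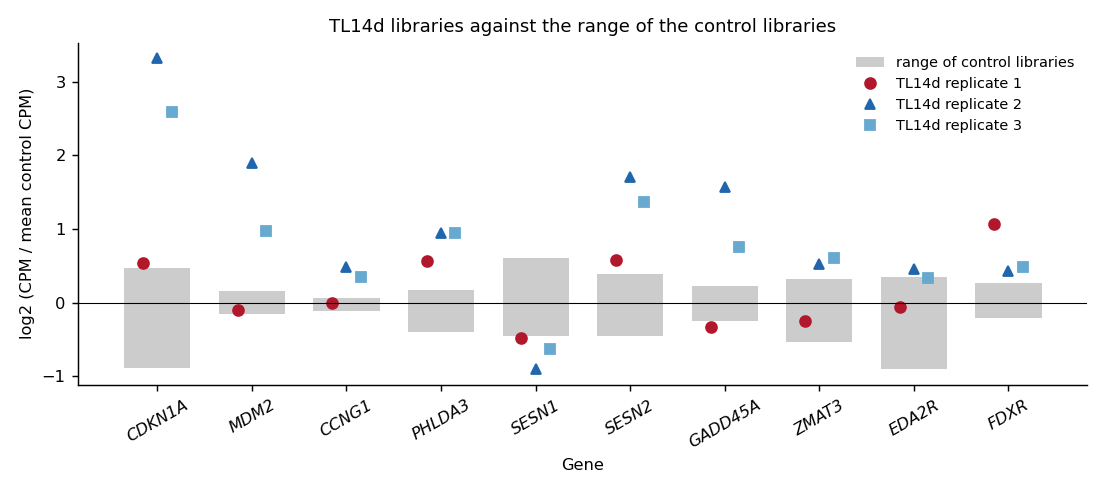
For each gene, the CPM of the 3 TL14d libraries is drawn as the log2 ratio to the mean control CPM, and the grey box spans the 3 control libraries. Replicate 1 lies in or near the box for most genes, whereas replicates 2 and 3 are above it for CDKN1A, MDM2, CCNG1, PHLDA3, SESN2, GADD45A, ZMAT3, and FDXR and below it for SESN1.

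From 3 days to 14 days, 1 of the 10 genes was lower and 0 were higher, beside 1.59% and 0.647% of all genes tested. CCNG1 fell by 0.79 on the log2 scale, with each TL14d library below each TL3d library, and its q of 0.0494 was at the edge of the threshold. It was not past it in 15 of the 18 alternatives (range of q 0.000362 to 0.171), the fits without any 1 library other than TL14d replicate 2 among them. SESN2, ZMAT3, PHLDA3, and SESN1 also had each TL14d library below each TL3d library, with log2 differences of -1.15, -0.71, -0.49, and -0.40, and none passed the test (q = 0.0929, 0.15, 0.225, and 0.498). FDXR had each TL14d library above each TL3d library, with a log2 difference of 0.45 (q = 0.35). These are 5 of 10 genes without overlap below and 1 above, beside 14.0% and 13.4% of all genes tested.

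To compare levels between genes, the authors' FPKM values, which are divided by transcript length and by depth, were used. In the control group CCNG1 was highest at 136 ± 13.7 FPKM (SD, n = 3), followed by MDM2 at 53.8 ± 7.36 and CDKN1A at 49.6 ± 22.3, which did not differ beyond their spread. PHLDA3 at 26.3 ± 6.26 and GADD45A at 22.8 ± 3.01 FPKM were likewise within their spread of each other, as were SESN1 at 15.8 ± 6.59 and ZMAT3 at 14.5 ± 4.52 FPKM. SESN2, EDA2R, and FDXR were lowest, at 4.91 ± 1.57, 4.74 ± 2.03, and 4.70 ± 0.94 FPKM, and could not be ordered. At 3 hours CDKN1A was highest, at 388 ± 75.9 FPKM, ahead of CCNG1 and MDM2, both at 121 FPKM, and GADD45A at 110.1 FPKM. The mean FPKM of CCNG1 at 3 hours was below that of the control group, whereas its mean CPM after TMM was above it. At 3 days CDKN1A was at 576 ± 126 FPKM, CCNG1 at 288 ± 37.5, and MDM2 at 249 ± 61.7 FPKM. EDA2R and FDXR were lowest again, at 5.90 ± 0.57 and 5.61 ± 0.97 FPKM.

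The transcript table held 15 transcripts of the 10 genes, and all were tested. In 7 genes there was a single transcript, whereas SESN2 had 2 and GADD45A and ZMAT3 had 3 each. At 3 hours 7 of the 15 were past the threshold in either direction, beside 28.3% of all transcripts tested, at 3 days 6 were, beside 5.13%, and at 14 days 0 were, beside 0%. At 3 days none of the 15 was past the threshold without control replicate 1 or 2 or without TL3d replicate 1 or 2. For GADD45A, the main transcript XM_002715933.3 rose by 2.70 (q = 0.00174) at 3 hours and the minor one XM_017346192.1 by 2.83 (q = 0.023). At 3 days neither passed the test, with log2 fold changes of 1.42 (q = 0.079) and 1.74 (q = 0.191). For SESN2, XM_002716081.3 rose by 1.79 at 3 hours (q = 0.00393) and by 2.39 at 3 days (q = 0.0212). The other SESN2 transcript, XM_017346546.1, was at 0, 0.61, and 1.25 CPM in the control libraries and at 12.5, 12.8, and 3.43 CPM in the TL3h libraries, and it did not pass the test (q = 0.084). For ZMAT3, XM_017346924.1 rose by 1.02 at 3 days (q = 0.0432), and XM_008266533.2 changed by 1.01 without passing it (q = 0.107).

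Other genes of the pathway were taken from lists by role. Of 12 regulators of p53, 11 were in the table and tested. At 3 hours 4 were lower, beside 22.2% of all genes tested. At 3 days 2 were higher and 2 lower, beside 10.6% and 7.0%, and at 14 days 0 were past the threshold. The median log2 fold change of the 11 was -0.29, -0.28, and -0.17 at the 3 times. With scaling by library totals alone 7 of the 11 were lower at 3 hours, as were 5674 of all 14835 genes tested. TP53BP1, which binds chromatin at double-strand breaks, fell by 1.0 (q = 7.31e-05) at 3 hours and by 0.53 (q = 0.0134) at 3 days, the latter lost without control replicate 1 or 2 or TL3d replicate 1 or 2 (q up to 0.0552). CHEK2, a checkpoint kinase that phosphorylates p53, fell by 1.33 (q = 0.00593) at 3 hours and rose by 1.74 (q = 0.0114) at 3 days. USP7, which removes ubiquitin from MDM2 and p53, had a log2 fold change of 0.33 at 3 hours (q = 0.0715), and of -0.17 with scaling by library totals alone (q = 0.367).

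Of 14 further targets with roles in growth arrest and DNA repair, 13 were tested. At 3 hours 6 were higher and 1 lower, beside 23.2% and 22.2% of all genes tested. At 3 days 6 were higher and 0 lower, beside 10.6% and 7.0%. With scaling by library totals alone, 2 were higher and 3 lower at 3 hours, beside 1889 and 5674 of all 14835 genes. The median log2 fold change of the 13 was 0.62 at 3 hours, 0.90 at 3 days, and 0.52 at 14 days, when 0 were past the threshold. PLK3 and PLK2, kinases of the polo-like family, rose by 5.18 (q = 0.000401) and 1.97 (q = 0.0389) at 3 hours. BTG2, an antiproliferative gene, and RPS27L, a ribosomal protein paralog, rose by 1.54 (q = 0.0367) and 0.82 (q = 0.00104). Of these, PLK2, BTG2, and RPS27L were not past the threshold with scaling by library totals alone (q = 0.0937, 0.148, and 0.0977), and PLK2 was lost in 10 and BTG2 in 7 of the 18 alternatives, among them the fits without any 1 of the TL3h libraries. DDB2, which recognises ultraviolet lesions in DNA, fell by 1.31 (q = 0.00454) at 3 hours and rose by 1.54 (q = 0.0137) at 3 days, and the difference between the 2 times was 2.85 (q = 0.000115). Its rise at 3 days was lost without control replicate 2 or TL3d replicate 2 (q up to 0.0535). SESN3, the third sestrin, had a log2 fold change of -0.73 at 3 hours (q = 0.0725), and it was called lower in 4 of the 18 alternatives, with library totals alone (-1.24, q = 0.00708), the DESeq2 test, the replicate block, and without control replicate 3.

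Of 14 targets with roles in cell death and metabolism, 12 were tested. At 3 hours 8 were higher and 1 lower, beside 23.2% and 22.2% of all genes tested. At 3 days 6 were higher and 0 lower, beside 10.6% and 7.0%. With scaling by library totals alone, 4 were higher and 2 lower at 3 hours, beside 1889 and 5674 of all 14835 genes. Without control replicate 3, 4 were higher at 3 days, as were 1300 genes in all. The median log2 fold change of the 12 was 0.96, 0.81, and 0.08 at the 3 times. FAS, a death receptor, rose by 3.97 at 3 hours (q = 0.000694), and TIGAR, a phosphatase that lowers glycolysis, rose by 2.92 (q = 0.00725) at 3 hours and by 3.77 (q = 0.0142) at 3 days. At 3 days TIGAR was not past the threshold without control replicate 1 or 2 or TL3d replicate 2 (q up to 0.0578). TP53I3, a quinone oxidoreductase, fell by 2.36 (q = 0.000965) at 3 hours. BAX, which permeabilises the mitochondrial outer membrane, was at a mean of 18.2 CPM in control libraries, 19.3 CPM at 3 hours, and 54.0 CPM at 3 days. It differed by 0.08 at 3 hours (q = 0.756) and rose by 1.57 at 3 days (q = 0.00695). The sign of BAX at 3 hours turned with scaling by library totals alone (-0.43, q = 0.108) and without control replicate 3 or TL3h replicate 1. SPATA18, which acts in mitochondrial quality control, had a log2 fold change of -0.94 at 3 hours (q = 0.163) and rose by 1.69 at 3 days (q = 0.0456), a call that was lost in 12 of the 18 alternatives (range of q 0.00727 to 0.141).

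Cell cycle genes that are known to be repressed through p21 and the DREAM complex were counted as a further list. All 12 were tested. At 3 hours 11 were lower and 0 higher than in the control group, beside 22.2% and 23.2% of all genes tested. At 3 days 10 were higher and 0 lower, beside 10.6% and 7.0%. From 3 hours to 3 days 12 were higher, beside 18.4%. The median log2 fold change of the 12 was -2.34 at 3 hours and 1.41 at 3 days. Whether these levels followed that of CDKN1A was not tested. CCNB2, a mitotic cyclin, fell by 2.99 (q = 0.000286) at 3 hours and rose by 1.42 (q = 0.0286) at 3 days, and CDC25C, a phosphatase that activates CDK1, fell by 2.69 (q = 0.000433) and rose by 2.06 (q = 0.0108). AURKA, a mitotic kinase, fell by 0.85 (q = 0.0271) and rose by 1.89 (q = 0.00906). BIRC5, which encodes survivin, had log2 fold changes of -1.24 (q = 0.108) and 1.40 (q = 0.0906). Without control replicate 3, 7 of the 12 were higher at 3 days, as were 1300 genes in all. CCNB2 was then not past the threshold, nor without control replicate 1 or 2 or TL3d replicate 1 or 2 (q up to 0.0968), and AURKA was lost at 3 hours without control replicate 1 or 2 or TL3h replicate 1 or 3 (q up to 0.0789).

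SESN2 and GADD45A are also known to be switched on through ATF4, the transcription factor of the integrated stress response, so 10 targets of ATF4 were counted beside them. At 3 hours 7 were higher and 0 lower, beside 23.2% and 22.2% of all genes tested. At 3 days 3 were higher and 0 lower, beside 10.6% and 7.0%, and at 14 days 0 were past the threshold. The median log2 fold change was 2.01, 0.80, and 0.33 at the 3 times. TRIB3, a pseudokinase, rose by 4.03 (q = 0.000124) at 3 hours. CHAC1, which degrades glutathione, was at a mean of 0.0835 CPM in control libraries and 8.20 CPM in TL3h libraries (q = 0.000613), and the size of its fold change depends on the handling of the near-zero control counts. DDIT4, an inhibitor of mTORC1, and ASNS, asparagine synthetase, had log2 fold changes of 0.21 (q = 0.856) and -0.44 (q = 0.234). DDIT4 was at 22.9, 27.4, and 214 CPM in the control libraries, and without control replicate 3 it was past the threshold at 3 hours (q = 0.0152) and at 3 days (q = 0.031), while its sign at 3 hours turned in 4 other alternatives. ASNS was called lower at 3 hours with library totals alone (-0.96, q = 0.0252) and without control replicate 3. Whether the levels of SESN2 and GADD45A followed p53 or ATF4 was not tested. Without TL14d replicate 1, the numbers of genes that were higher at 14 days were 0 regulators, 4 arrest and repair targets, 4 death and metabolism targets, 0 cell cycle genes, and 1 ATF4 target, all 0 with that library. Of all genes tested in the fit without it, 3.51% were higher. The library left out was the one that correlated better with the control libraries than with its own group.

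**Figure D4:**
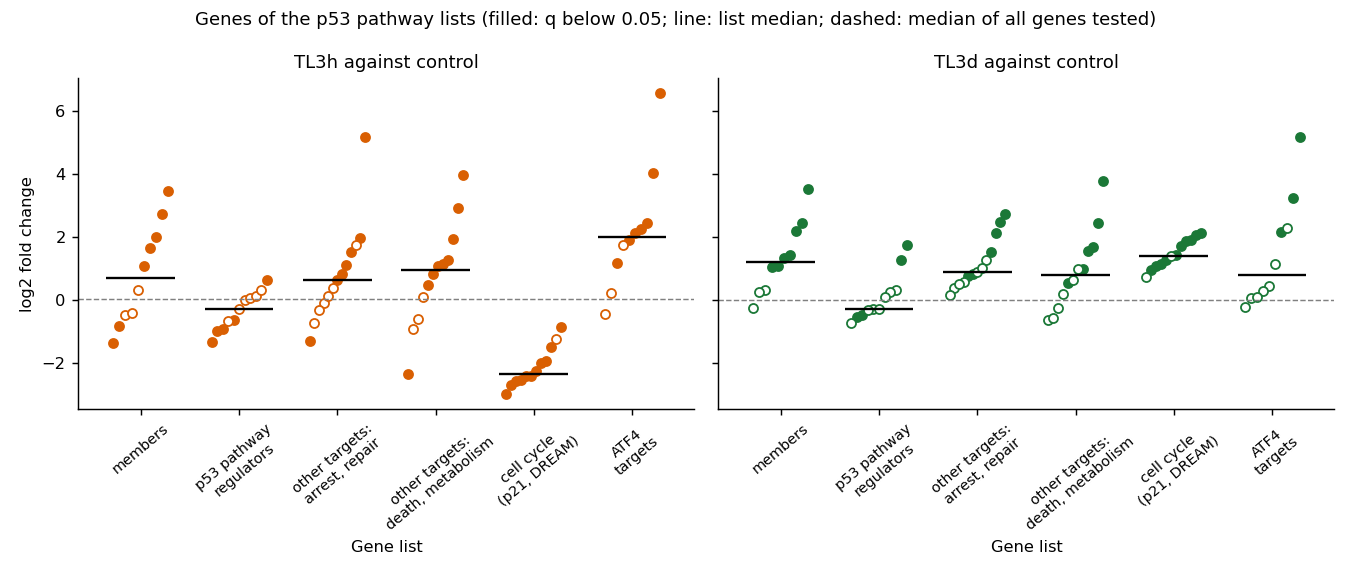
Each point is 1 gene of the list named on the horizontal axis, and the vertical axis gives its log2 fold change against the control group at 3 hours (left) and 3 days (right), filled where q was below 0.05. The black lines are list medians and the dashed line the median of all genes tested. The cell cycle list lies at a median of -2.34 at 3 hours and 1.41 at 3 days, and the 10 p53 targets (members) lie at 0.70 and 1.20. The highest point at each time is CHAC1 of the ATF4 list, whose fold change depends on near-zero control counts.

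Likeness to CDKN1A was measured over the 4 group means of log2 CPM, each centred on its mean, as the root-mean-square difference among the 13252 genes whose mean was 1 CPM or more. The closest genes were VCAN (0.158), which encodes the matrix proteoglycan versican, CKB (0.186), brain-type creatine kinase, SNAI1 (0.189), a transcription factor of epithelial to mesenchymal transition, FSCN1 (0.217), an actin-bundling protein, and CD83 (0.239), a surface protein of activated dendritic cells. Of the other 9 p53 targets, SESN2 was closest, at 0.569 and rank 85, followed by MDM2 at 0.705 and rank 175, GADD45A at 0.814 and rank 329, and PHLDA3 at 0.974 and rank 687. CCNG1 stood at rank 1928, ZMAT3 at rank 4920, SESN1 at rank 8089, FDXR at rank 9109, and EDA2R at rank 10172, so the p53 targets were spread over most of the ranking.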

How the data were processed

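Paired reads of stranded mRNA libraries were mapped by the authors to OryCun2.0 with STAR 2.6.0c, and GeneData Profiler Genome gave the values per gene and transcript. The deposited estimated counts keep each library's own total, and 23.4% of those per gene were fractions. The authors' FPKM values are divided by transcript length and depth. The strand setting and the share of a read given to each of several placements are not given in the sources used here. Samples were grouped by their labels. Estimated counts were rounded, filtered with filterByExpr (minimum count 10, minimum total count 15), and scaled by TMM (edgeR 4.0.16, R 4.3.3), and a single quasi-likelihood fit without covariates held all 12 libraries. P-values were adjusted by Benjamini-Hochberg over 14835 genes or 26082 transcripts. The SE is the size of a log2 fold change divided by the square root of its F statistic. The fit was tested on simulated data for TL3h against control with 14835 genes, in which 128 of 200 changed genes were recovered with 5 false calls. Of those changed 8-fold or more, 84 of 100 were recovered. In the data 6733 genes were called at 3 hours, so a simulation with so few changed genes does not test the scaling there. Alternatives were DESeq2 1.42.0 size factors, its Wald test, library size only, no filter, the replicate number as a block, only the 6 libraries compared, and leaving out each library. For the gene lists, the fits without TL14d replicate 1, without control replicate 3, and with library size only were chosen after seeing the data. No pair of libraries of a group were copies of each other, since their squared count differences were at least 83.6 times the counting variance. The named genes of each list were the 2 with the largest and the 2 with the smallest change at 3 hours, with BAX, BTG2, and RPS27L, and 1 gene that the rule also names is not reported here. TP73, GADD45B, PMAIP1, and TNFRSF10B were not found by name in the table. The members and lists were chosen with earlier results of these data known.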

Additional observations from a re-analysis of the deposited data

Results flagged for a closer look

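The following genes differed between time points by a direct test of 1 group against the other. From 3 hours to 3 days, the log2 change was 0.77 for CCNG1, -1.31 for GADD45A, 1.47 for ZMAT3, 1.69 for EDA2R, and 1.07 for FDXR. From 3 days to 14 days it was -0.79 for CCNG1. The GADD45A difference and the CCNG1 difference from 3 days to 14 days were not past the threshold under several alternatives, as given beside those results. Groups of 3 libraries were not tested for single outlying samples.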

How the results depend on the processing

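Over 50 log2 fold changes of the 10 genes (each gene in 5 comparisons), 839 values from the alternatives kept their direction and side of the threshold, 42 lost the threshold, 11 passed it, and 8 reversed. The reversals were CCNG1 at 3 hours with library size only (-0.19), SESN1 at 3 days, EDA2R at 3 days and 14 days and between them, and CDKN1A from 3 hours to 3 days, with ranges when 1 library was left out of -0.44 to 0.17, -0.0013 to 0.53, -0.0512 to 0.48, -0.16 to 0.0810, and -0.0554 to 0.27. The number of the 10 genes past the threshold when 1 library was left out was 6 to 8 at 3 hours, 4 to 7 at 3 days, 0 to 3 at 14 days, 4 to 5 from 3 hours to 3 days, and 0 to 2 from 3 days to 14 days. DESeq2 gave 2 at 14 days and 2 from 3 days to 14 days, and library size only, no filter, the replicate block, and the 6 libraries alone each gave 0 from 3 days to 14 days. The labels do not say that a replicate number marks a shared animal, and the deviations of same-numbered libraries from their group means did not all correlate above 0.1 in any comparison, with correlations for replicates 1, 2, and 3 of 0.246, -0.128, and -0.129 (TL3h and control), 0.481, -0.147, and 0.283 (TL3d and control), 0.219, 0.0203, and 0.393 (TL14d and control), 0.198, -0.129, and -0.0964 (TL3d and TL3h), and 0.0316, 0.264, and 0.424 (TL14d and TL3d). These correlations cannot show whether libraries were paired, since none of differently numbered libraries stand beside them. The samples were taken as unpaired because the labels do not pair them. The replicate block, which moved no other count of the 10 genes by more than 1.5 times, gave 6946 genes past the threshold at 3 hours, 2719 at 3 days, and 0 at 14 days, beside 6733, 2608, and 0. Over all genes, DESeq2 gave 4439 at 3 days and 371 at 14 days, and leaving out 1 library gave 359 (without TL3d replicate 2) to 3778 (without TL14d replicate 1) at 3 days and 0 to 716 (without TL14d replicate 1) at 14 days. At 3 days, the counts without control replicate 1, control replicate 2, and TL3d replicate 1 were 491, 370, and 449. Of the 15 transcripts, 0 to 7 were past it at 3 days and 0 to 3 at 14 days. Fold changes of FDXR and EDA2R rest on the fewest counts of the 10 genes.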

Other observations

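The estimated counts of the 3 GADD45A transcripts added up to 1.37 times the count of the gene, whereas the ratio was 1.0 for SESN2 and 1.02 for ZMAT3. The median ratio over 5110 genes with several transcripts was 1.08. The level of GADD45A in CPM is therefore given from the gene table only.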
